A study of Mus musculus with 2 samples.

Results

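The protein-coding genes of the translation initiation factors (symbols beginning with Eif and a number) and elongation factors (Eef and a number) were followed in single mouse pseudoblastocysts. Of 52366 genes in the deposited table, 65 met this rule, 53 Eif and 12 Eef genes, with Eif2s3x and Eif2s3y, the X- and Y-linked copies of the eIF2 gamma subunit, left aside. All embryos were made by in vitro fertilization of B6D2F1 oocytes with ICR sperm, had the zona pellucida removed with an enzyme, and were cultured to 96 h postinsemination (hpi). The 1C embryos came from whole zygotes treated at 5 hpi, and the 2CB, 4CB and 8CB embryos came from single blastomeres isolated from 2-cell (24 hpi), 4-cell (48 hpi) and 8-cell (48 hpi) embryos. Pseudoblastocysts are embryos with a cavity in which an inner cell mass was not looked for, so that trophoblastic vesicles may be among them. There were 6 embryos for each of the 4 stages, and the number of parental embryos behind them is not given in the sources used here, so that p-values measure the spread between these embryos.

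Protein synthesis begins when eIF2 brings the initiator methionyl-tRNA to the small ribosomal subunit, eIF3 and the scanning factors eIF1 and eIF1A hold that subunit open, and the eIF4 group binds the mRNA cap and unwinds the leader. eIF5 triggers GTP hydrolysis on eIF2 at the start codon, eIF2B recharges eIF2 with GTP, and eIF5B joins the large subunit, which eIF6 otherwise keeps apart. eEF1A then delivers aminoacyl-tRNA with the help of its exchange factor eEF1B, and eEF2 moves the ribosome along by a codon. Preimplantation embryos pass from stored maternal mRNA to their own transcripts and raise protein synthesis strongly towards the blastocyst stage.

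RNA of each embryo was barcoded by CEL-Seq2, a 3' end method with unique molecular identifiers (UMIs), and totals ran from 70941 to 1507471 UMIs per embryo, with stage medians of 216325 (4CB), 244312 (1C), 313283 (8CB) and 519932 (2CB). By the sample labels the embryos form 2 library pools of 12, the 1C–8CB pool and the 2CB–4CB pool, so that a difference between these groups and a difference between the pools cannot be told apart. CPM below are UMIs per 1000000 of an embryo's total after that total is multiplied by its TMM normalization factor. Of the lineage markers, 8 of 9 tested trophectoderm genes were higher and 1 lower in 2CB and 4CB. Their summed level was 409 to 1047 CPM in the 1C and 8CB embryos against 2919 to 6333 CPM. Summed primitive endoderm markers ran from 257 to 861 CPM (2 of 8 genes at 0 UMIs, Sox7 and Foxa2) against 288 to 1387 CPM, with 4 of 5 tested genes higher and 1 lower. Epiblast and inner cell mass markers summed to 608 to 2036 CPM against 299 to 1020.0 CPM, with 2 of 6 tested genes higher and 4 lower. Pou5f1, the gene of OCT4, had 13 UMIs in the 1C–8CB pool and 20 in the other. UMIs given by pool are not scaled to depth, and 2CB had the highest median total. Near-identical copies of the marker genes were not looked for, so that low marker counts are uncertain. Maternal markers summed to at most 106 CPM in any embryo, with Zscan4c at 0 UMIs throughout. The 1 of 6 that could be tested, Ooep, was higher (2.04 ± 0.39, adjusted p = 7.68e-05), with 39 UMIs in the 1C–8CB pool and 398 in the other, while Zp3 had 78 and 38 and Gdf9 30 and 20. The part of these differences in the results for the factors was not tested, and with RNA of whole embryos fewer cells of a type and less RNA per cell cannot be told apart.

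The factors together made up a small part of the counts. Their CPM summed over the 65 genes, as a percentage of 1000000, had a median of 1.62% in 4CB (1.27 to 1.74%) and 1.64% in 2CB (1.46 to 1.83%). In 8CB it was 1.84% (1.76 to 1.9%) and in 1C 1.89% (1.59 to 2.07%). Because CPM uses scaled totals, these are not exact shares of the UMIs. The stage ranges overlapped for every pair but 8CB with 4CB, and that gap is narrow beside the TMM factors of 0.936 to 1.05. Of the 65 genes, 52 passed the filter on low counts that leaves 5940 genes in the table for testing, and the other 13 are given with their UMIs below. A gene is said to be called when its edgeR adjusted p was below 0.1, and fold changes are log2 with their standard error (SE). The SE was derived from the test, as the absolute fold change divided by the square root of the F statistic. It need not match the p-value of each gene.

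Which factors differed with the stage of isolation was asked first. Among the 4 stages, 21 of the 52 factors were called (40.4%), against 46.9% of all 5940 genes, and thinned to equal depth 9 were, against 34.6%. At an adjusted p below 0.05 there were 13, against 39.8% of all genes. Set along the groups that share a pool, 6 factors were higher in 2CB and 4CB than in 1C and 8CB (11.5% against 31.2% of all genes) and 23 were lower (44.2% against 23.9% of all genes). The median log2 fold change was -0.32 over the 52 factors and 0.12 over all genes, and the factors ranged from -1.48 to 0.97. In 23 of 24 repeats that each left out 1 embryo, the count of higher factors stayed within 1.5 times of the 6, and without 1C embryo 6 it was 3 (28.4% of all genes were higher). With every embryo thinned to the same depth, 3 were higher (24.3% of all genes were) and 14 lower (19% of all genes were). Thinning was a single random draw here and throughout, and the spread between draws was not measured. The shares of all genes, 31.2% higher and 23.9% lower, are the background for the groups and lists counted between the pools from all 24 embryos at full depth. Embryos 4 and 5 of 1C and embryo 5 of 8CB had levels of Eif4e and Eef1akmt1 within the range of the other pool, and without both of these 1C embryos 5 factors were higher and 22 lower, against 31.6% and 23.8% of all genes.

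**Figure D1:**
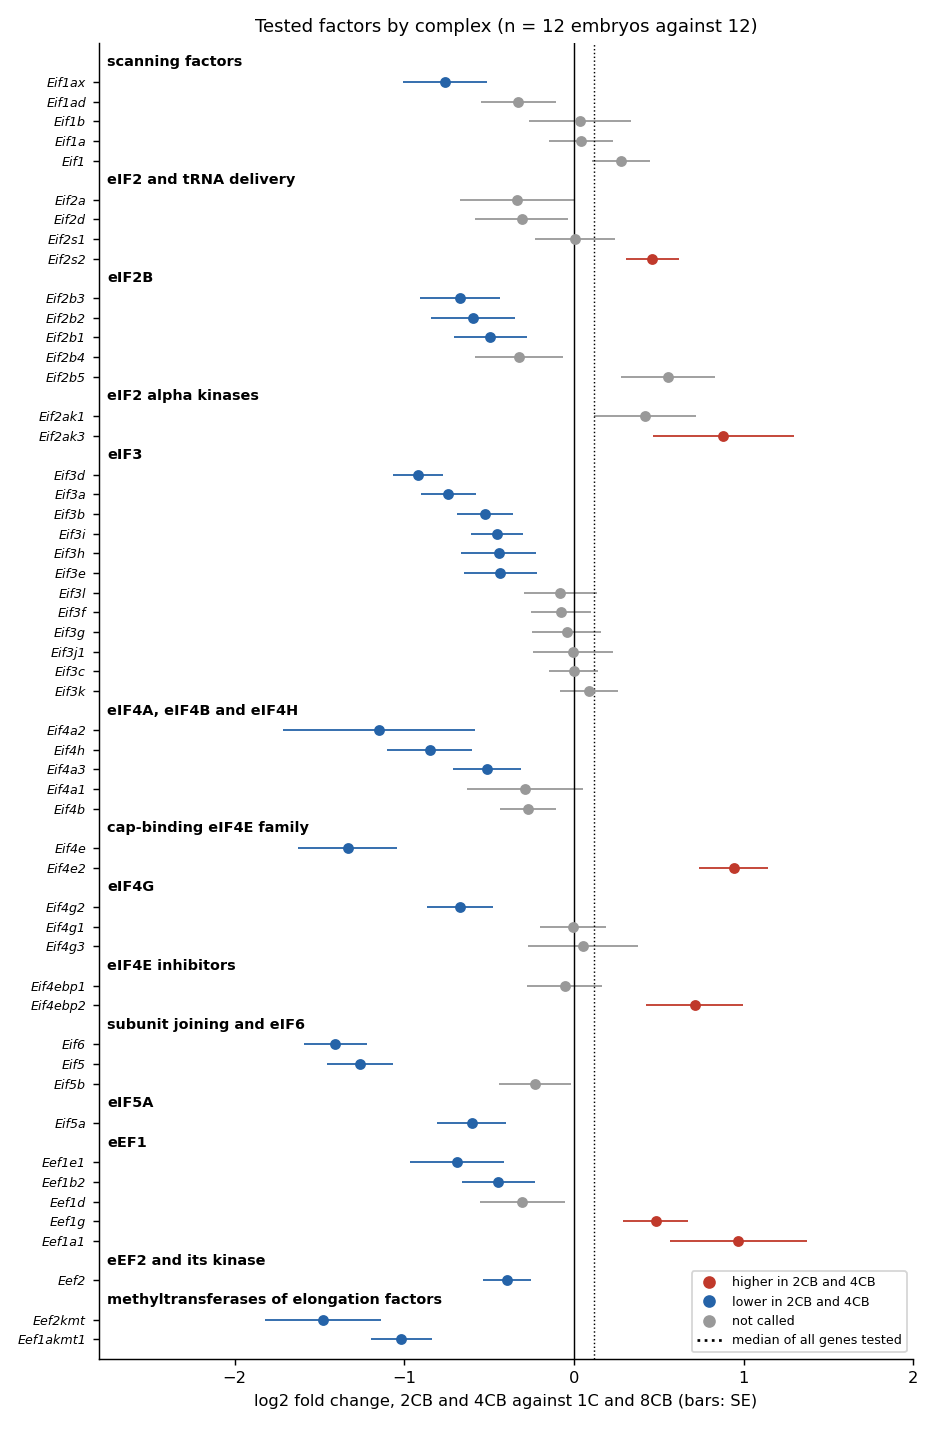
Log2 fold change of each tested factor in the 2CB–4CB pool against the 1C–8CB pool, with its SE as a bar, 12 embryos against 12. Red points mark the 6 factors called higher, blue points the 23 called lower and grey points the rest, and the dotted line is the median of all genes tested, 0.12.

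Among the scanning factors, which keep the small subunit competent to inspect the leader for a start codon, Eif1ax alone of 5 was called between the pools. Eif1ax, the X-linked gene of eIF1A (chrX:159372178-159389928, plus strand), had 119, 225 and 364 CPM as lowest, median and highest value in 1C and 108, 327 and 527 CPM in 8CB. It had 97.1, 169.7 and 198 CPM in 2CB and 94, 134 and 335 CPM in 4CB. The 2 pools overlapped, and the log2 fold change was -0.76 ± 0.25 (SE, adjusted p = 0.0116). Its autosomal partner Eif1a had a log2 fold change of 0.04 ± 0.19 (SE), and the median share of Eif1ax in the UMIs of both was 52.9% for 1C and 61.6% for 8CB, against 40.9% for 2CB and 43.2% for 4CB. Eif1, which guards the choice of the start codon, was at 1067 to 2926 CPM over the 24 embryos and had a log2 fold change of 0.28 ± 0.17 (SE, adjusted p = 0.184) between the pools and 0.56 ± 0.24 (adjusted p = 0.0783) in 2CB against 1C, where it was called higher. Its close copy Eif1b gave a median of 1.27 to 1.79% of the UMIs of the pair in each stage. Of the 50-base stretches in the 3' ends of Eif1 transcripts, 23.0% also occur in transcripts of other genes, most of them pseudogenes, so that its level is uncertain.

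Of the factors that bring tRNA to the ribosome, 1 of 4 was called, and it rose. Eif2s2, the beta subunit of eIF2 (chr2:154871410-154892935, minus strand), had 1411, 2213 and 2908 CPM in 1C and 1465, 1593 and 2342 CPM in 8CB. In 2CB it had 1716, 2845 and 3371 CPM and in 4CB 1762, 2865 and 3279 CPM. The groups overlapped widely, and the log2 fold change was 0.46 ± 0.16 (SE, adjusted p = 0.0162). Of the 50-base stretches in its 3' ends, 20.3% are shared with the pseudogene Gm9892. Eif2s1, the alpha subunit on which the stress kinases act, had a log2 fold change of 0.01 ± 0.24 (SE, adjusted p = 0.985).

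The eIF2B complex recharges eIF2, and 3 of its 5 subunit genes were called lower, against 23.9% of all genes, and none higher: Eif2b1 (-0.49, called in 26 of 33 other settings), Eif2b2 (-0.60, called in 31) and Eif2b3 (-0.67). Eif2b3, the gamma subunit (chr4:117019402-117087306, plus strand), had 55.3, 103 and 169.6 CPM in 1C and 62.9, 125 and 257 CPM in 8CB, against 61.3, 70.1 and 96.2 CPM in 2CB and 48.6, 63.7 and 115 CPM in 4CB. The highest values in 1C and 8CB lay above all 2CB and 4CB embryos and the lower ones overlapped them, and the log2 fold change was -0.67 ± 0.23 (SE, adjusted p = 0.018). Thinned to equal depth, the value of Eif2b3 was -0.55 with an adjusted p = 0.17.
Eif2b5, the catalytic epsilon subunit (chr16:20498817-20509955, plus strand), was the exception in direction. It had 23.6, 46.7 and 63.5 CPM in 1C and 53.4, 86 and 268 CPM in 8CB, against 78.7, 94.1 and 296 CPM in 2CB and 51.2, 101 and 135 CPM in 4CB. All 6 2CB embryos lay above all 6 1C embryos, while 8CB overlapped every other stage. It was called among the 4 stages (adjusted p = 0.0337) and missed the threshold between the pools, where the log2 fold change was 0.55 ± 0.28 (SE, adjusted p = 0.101). Without 8CB embryo 5 that value was 0.75 with an adjusted p = 0.0211, and without 2CB embryo 6, which held 296 CPM, it was 0.33 with an adjusted p = 0.292.

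The eIF2 alpha kinases phosphorylate eIF2 under stress and so block eIF2B, and of 4 such genes 2 could be tested. Eif2ak3, the kinase PERK of the endoplasmic reticulum (chr6:70844515-70905245, plus strand), had 0, 29.5 and 39.5 CPM in 1C and 0, 29.5 and 53.4 CPM in 8CB, against 12.1, 32.3 and 140.1 CPM in 2CB and 15, 59.8 and 76.1 CPM in 4CB. Its groups overlapped, and the log2 fold change was 0.88 ± 0.41 (SE, adjusted p = 0.0792). The call was kept in 14 of 24 repeats without 1 embryo, and without 2CB embryo 2, which held 140.1 CPM, the value was 0.53 with an adjusted p = 0.27. Eif2ak1, the heme-regulated kinase, had 0.42 ± 0.30 (log2, SE, adjusted p = 0.255). Targets that cells translate or transcribe under eIF2 phosphorylation were mixed, with 1 of 4 tested genes higher, against 31.2% of all genes, and 3 lower, against 23.9%. Asns, asparagine synthetase, had 1.66 ± 0.40, and those lower were Atf4 (-0.69 ± 0.23), Sesn2 (-1.05 ± 0.34) and Ddit4 (-2.89 ± 0.56). Of the untested targets, Ddit3 and Atf3 had 0 UMIs in the 1C and 8CB pool and 22 and 27 in the other. Chac1 had 51 UMIs in the 1C and 8CB pool and 32 in the other, and Trib3 35 and 48, all not scaled to depth.

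In eIF3, the largest initiation complex, 6 of 12 tested subunits fell (23.9% of all genes did) and none of the 12 was called higher (31.2% of all genes were). The 6 were Eif3a (-0.74), Eif3b (-0.53), Eif3d (-0.92), Eif3e (-0.43), Eif3h (-0.44) and Eif3i (-0.45). Eif3e was called in 9 and Eif3h in 13 of the 33 other settings tried, and by DESeq2 neither passed (adjusted p = 0.14 and 0.114). Eif3d, a subunit that can itself bind the mRNA cap (chr15:77958998-77970824, minus strand), had 930.0, 1112 and 1474 CPM in 1C and 962, 1172 and 1364 CPM in 8CB. It had 420.2, 645 and 887 CPM in 2CB and 412, 572 and 693 CPM in 4CB. All 12 embryos of the 2CB and 4CB pool lay below all 12 of the other, and the log2 fold change was -0.92 ± 0.15 (SE, adjusted p = 7.41e-06). Over the 24 repeats without 1 embryo it stayed between -0.99 and -0.87. Exons of Eif3d share 2151 bases with the antisense gene Gm17638, which had 48 UMIs in the table against 7461 for Eif3d. Eif3a, the scaffold subunit, is given for its role and was chosen after its values were seen, and had 608, 856 and 1371 CPM in 1C, 368, 687 and 864 CPM in 8CB, 386, 554 and 619 CPM in 2CB and 320.3, 399.8 and 499 CPM in 4CB.
The pools overlapped for Eif3a, and the log2 fold change was -0.74 ± 0.16 (SE, adjusted p = 3.86e-04). The remaining 6 subunits stood between -0.08 and 0.09, among them Eif3c (-0.0021 ± 0.14), which pairs with Eif3a in the core of the complex. The calls of Eif3e (adjusted p = 0.0943) and Eif3h (adjusted p = 0.099) were near the threshold, and 30.4% and 20.8% of the 50-base stretches of their 3' ends occur in pseudogenes.

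The helicase group unwinds leaders for scanning. Of its 5 genes 3 were called lower, against 23.9% of all genes, Eif4a2 (-1.15), Eif4a3 (-0.51) and Eif4h (-0.85), while the helicase Eif4a1 (-0.29 ± 0.34) and its partner Eif4b (-0.27 ± 0.17) were not called. Eif4a2 (chr16:23107444-23114136, plus strand) was scarce, at 0, 18.7 and 93.8 CPM in 1C, 0, 11.5 and 123 CPM in 8CB, 6.41, 22.7 and 66.4 CPM in 2CB and 0, 6.54 and 25.6 CPM in 4CB. The highest values were in 8CB embryo 2 and 1C embryo 3 and the stages overlapped, and the log2 fold change was -1.15 ± 0.57 (SE, adjusted p = 0.0962). That call was kept in 12 of 24 repeats, and the value was -0.62 (adjusted p = 0.378) without 8CB embryo 2 and -0.79 (adjusted p = 0.278) without 1C embryo 3. Eif4a3, for which 29.5% of the 50-base stretches in its 3' ends occur in 3 other genes, acts in the exon junction complex rather than in scanning, and Eif4h stimulates the helicase.

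The cap-binding family split by member. Eif4e, which binds the cap and recruits the mRNA to the ribosome (chr3:138526179-138559696, plus strand), had 47.3, 246 and 382 CPM in 1C and 66, 126 and 252 CPM in 8CB, against 53.3, 74.5 and 84.6 CPM in 2CB and 31.3, 72.3 and 128 CPM in 4CB. In 1C 4 embryos lay above all 2CB and 4CB embryos and embryos 4 and 5 lay among them, in 8CB 3 lay above them all and embryos 3, 5 and 6 among them, and the log2 fold change was -1.33 ± 0.29 (SE, adjusted p = 4.01e-04). Of the 50-base stretches in its 3' ends 22.6% occur in 3 pseudogenes. Eif4e2, or 4EHP, binds the cap without recruiting the ribosome and serves in repression (chr1:87213914-87240488, plus strand). It had 42.3, 64 and 111 CPM in 1C and 39.4, 45.2 and 75.5 CPM in 8CB, against 92.1, 106 and 175 CPM in 2CB and 89.6, 106 and 111 CPM in 4CB. The 2CB and 4CB embryos lay above all 1C and 8CB embryos except 1C embryo 2 at 111 CPM, and the log2 fold change was 0.94 ± 0.20 (SE, adjusted p = 2.94e-04). Both calls held in all 24 repeats without 1 embryo.
The share of Eif4e2 in the UMIs of the pair had a lowest, median and highest value of 10%, 25.0% and 57.1% in 1C and 17.2%, 28.5% and 41.7% in 8CB. In 2CB these values were 52.3%, 63.6% and 75.5%, and in 4CB 45.2%, 59.9% and 77.3%. All 8CB embryos lay below all 2CB and 4CB embryos, and in 1C embryos 4 and 5 lay within the range of the other pool. These shares carry no test, since both genes were already compared.

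**Figure D2:**
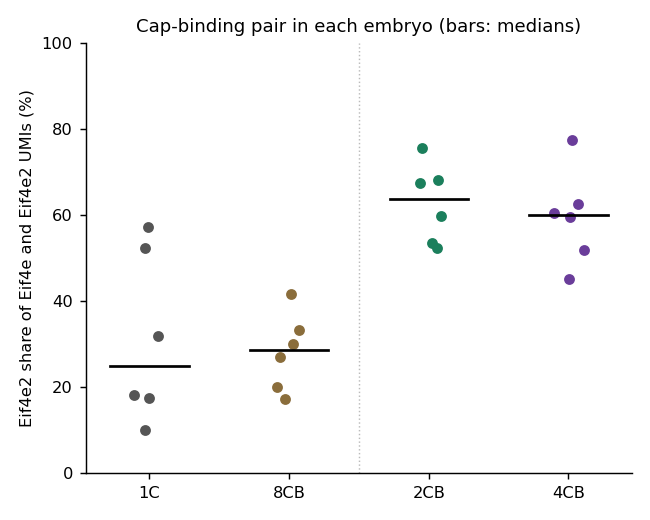
Share of Eif4e2 in the summed UMIs of Eif4e and Eif4e2 (%) in each of 24 embryos, with stage medians as bars and a dotted line between the library pools. Medians are 25.0% (1C), 28.5% (8CB), 63.6% (2CB) and 59.9% (4CB), and 1C embryos 4 and 5 lie above the rest of their pool.

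The scaffold eIF4G joins the cap complex to eIF3. Eif4g2, or DAP5, which lacks the site for eIF4E (chr7:111067750-111083030, minus strand), was the member called of 3, with 347, 675 and 903 CPM in 1C and 473, 773 and 1127 CPM in 8CB. It had 329, 378 and 729 CPM in 2CB and 207, 467 and 691 CPM in 4CB. The groups overlapped, and the log2 fold change was -0.67 ± 0.20 (SE, adjusted p = 0.00533). The canonical scaffold Eif4g1 (-0.0028 ± 0.19) and Eif4g3 (0.05 ± 0.32) were close to 0 on the log2 scale. Eif4ebp2, an inhibitor that holds eIF4E away from eIF4G (chr10:61428491-61452661, minus strand), had 21.6, 34.3 and 63 CPM in 1C and 16.9, 52.1 and 77.8 CPM in 8CB, against 50.05, 65.7 and 118 CPM in 2CB and 30.5, 68.4 and 144 CPM in 4CB. Its groups overlapped, and the log2 fold change was 0.71 ± 0.28 (SE, adjusted p = 0.039). In the single random draw thinned to equal depth the value was 0.20 with an adjusted p = 0.714. Without 1C embryo 6 the value was 0.58 with an adjusted p = 0.1005. Its relative Eif4ebp1 had -0.05 ± 0.22.

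The steps at the start codon and subunit joining held the lowest adjusted p-values of the set. Eif6, which keeps free large subunits from joining (chr2:155819832-155826925, minus strand), had 418, 806 and 962 CPM in 1C and 503, 818 and 972 CPM in 8CB, against 179, 344 and 478 CPM in 2CB and 225, 238 and 346 CPM in 4CB. Apart from 1C embryo 5, at 418 CPM, every 1C and 8CB embryo lay above every 2CB and 4CB embryo, and the log2 fold change was -1.41 ± 0.19 (SE, adjusted p = 3.25e-07). Eif5, the GTPase activator of eIF2 (chr12:111538016-111546752, plus strand), had 287, 375 and 628 CPM in 1C and 236, 297 and 608 CPM in 8CB. It had 62.4, 129 and 233 CPM in 2CB and 173, 188 and 198 CPM in 4CB. No embryo of the 2CB and 4CB pool reached the lowest of the other pool, and the log2 fold change was -1.26 ± 0.19 (SE, adjusted p = 3.86e-06). Eif5 and Eif3d were the factors whose pools did not overlap, 2 of 52 (3.85%) with 2CB and 4CB below, against 2.17% of all genes (thinned to equal depth 0 of 52, against 1.36%), and 0 of 52 with 2CB and 4CB above, against 3.48% of all genes. Eif5b, the joining GTPase, was called among the 4 stages (adjusted p = 0.0656) but not between the pools (-0.23 ± 0.21, adjusted p = 0.386).

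Eif5a, which carries the modified lysine hypusine and helps ribosomes past difficult peptide bonds (chr11:69916714-69921958, minus strand), had 134, 172 and 213 CPM in 1C and 119, 179 and 224 CPM in 8CB, against 55.2, 98.8 and 149 CPM in 2CB and 76.8, 111 and 196 CPM in 4CB. The groups overlapped in part, and the log2 fold change was -0.60 ± 0.20 (SE, adjusted p = 0.0148). In the single random draw thinned to equal depth the value was -0.25 with an adjusted p = 0.472. Of the genes that modify elongation factors or hold special ones, 2 of 5 tested were higher, Dph5 (0.74 ± 0.37) and Eefsec (2.52 ± 0.36), and Dph3 was lower (-1.03 ± 0.24), against 31.2% and 23.9% of all genes. Eefsec is the elongation factor for selenocysteine.

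**Figure D3:**
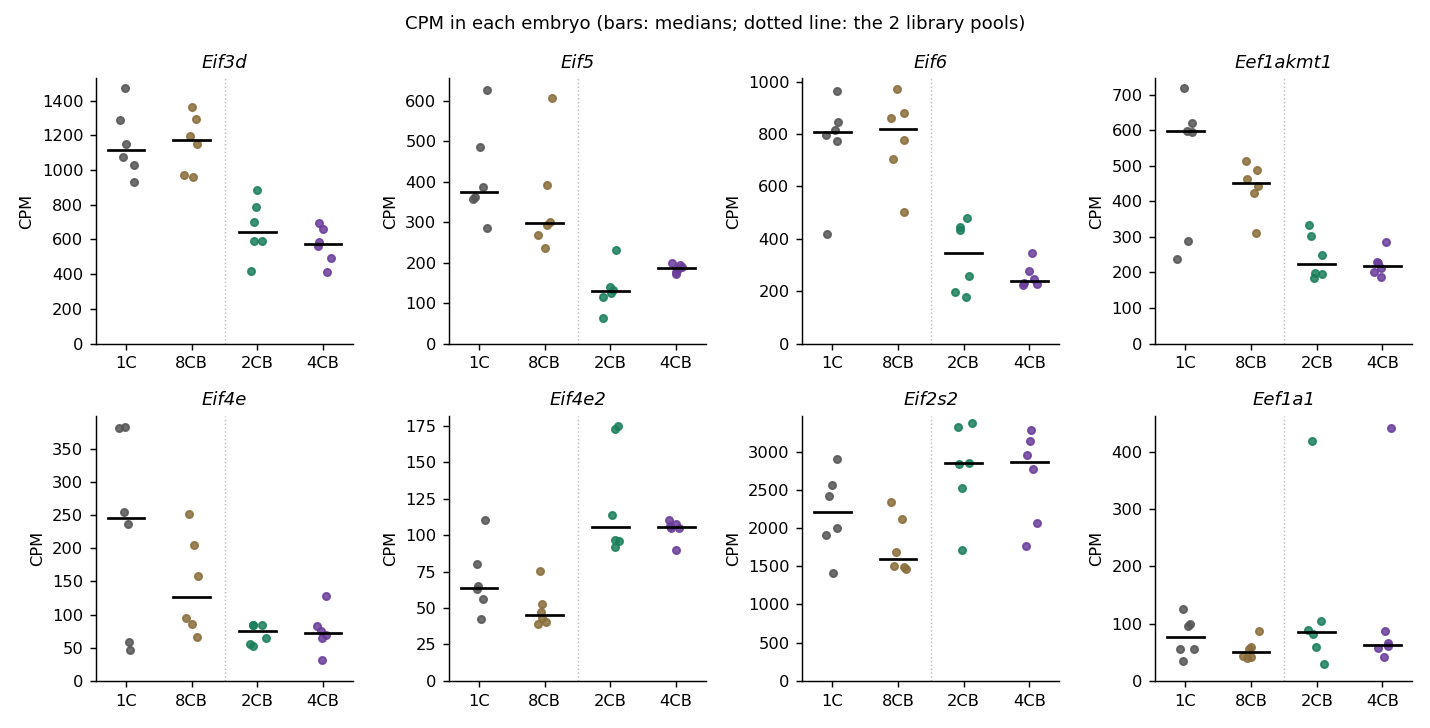
CPM of 8 factors in each embryo, on linear axes from 0, with stage medians as bars and a dotted line between the library pools. Eif3d, Eif5, Eif6 and Eef1akmt1 stand lower in 2CB and 4CB, Eif4e2 stands higher, and the highest values of Eef1a1 belong to 1 embryo of 2CB and 1 of 4CB.

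Of the eEF1 genes 5 were tested, with 2 called higher (Eef1a1 and Eef1g, 0.48) and 2 called lower (Eef1b2, -0.45, and Eef1e1), against 31.2% and 23.9% of all genes. Eef1b2 was called in 15 and Eef1g in 30 of 33 other settings. Eef1a1, the tRNA carrier (chr9:78478449-78489151, minus strand), had 33.9, 76.2 and 126 CPM in 1C and 40.5, 50.1 and 86.4 CPM in 8CB, against 28.9, 84.8 and 419 CPM in 2CB and 42.4, 63.1 and 442 CPM in 4CB. The medians lay close together and the highest values came from 2CB embryo 3 and 4CB embryo 1, and the log2 fold change was 0.97 ± 0.41 (SE, adjusted p = 0.049). Without 2CB embryo 3 the value was 0.55 (adjusted p = 0.199), without 4CB embryo 1 it was 0.45 (adjusted p = 0.289) and without 1C embryo 6 it was 0.83 (adjusted p = 0.104). Its level is uncertain, because 65.4% of the 50-base stretches in its 3' ends occur in 20 other genes, 18 of them pseudogenes, and only 859 UMIs were assigned to it in 24 embryos.
Eef1e1, also known as AIMP3, is a scaffold of the tRNA synthetase complex rather than an exchange factor (chr13:38645698-38659028, minus strand). It had 39.5, 65.4 and 76.2 CPM in 1C and 34.6, 51.1 and 81.8 CPM in 8CB, against 12.1, 28.9 and 66.4 CPM in 2CB and 18.8, 33.3 and 83.3 CPM in 4CB. The stages overlapped, and the log2 fold change was -0.69 ± 0.28 (SE, adjusted p = 0.0405), with an adjusted p = 0.145 when thinned to equal depth and 0.122 with no filter. Eef2, the translocase (chr10:81176631-81182498, plus strand), had 1023, 1648 and 2393 CPM in 1C, 1688, 2007 and 2291 CPM in 8CB, 1150.5, 1493 and 2006 CPM in 2CB and 1008, 1259 and 1521 CPM in 4CB. All 8CB embryos lay above all 4CB embryos while 1C and 2CB overlapped them, and the log2 fold change was -0.39 ± 0.14 (SE, adjusted p = 0.0229), with an adjusted p = 0.119 when fitted with no filter.

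Methyltransferases add methyl groups to lysines of elongation factors, and both that could be tested, of 4, fell. Eef2kmt, which acts on eEF2 (chr16:5244152-5255983, minus strand), had 7.05, 30.2 and 79 CPM in 1C and 8.64, 32.9 and 63 CPM in 8CB, against 3.02, 8.68 and 12.8 CPM in 2CB and 10.9, 19 and 23.3 CPM in 4CB. It was scarce and its stages overlapped, and the log2 fold change was -1.48 ± 0.34 (SE, adjusted p = 6.79e-04). Exons of Eef2kmt share 472 bases with Alg1 on the opposite strand, which had 4 UMIs. Antisense genes with more UMIs than the factor share exon bases with Eif1ad (428 bases with Banf1, 6064 UMIs against 834), Eif2a (72 with Serp1, 4324 against 674), Eif2b4 (204 with Snx17, 724 against 446) and Eef1akmt3 (100 with Mettl1, 4130 against 24), whose levels are uncertain because the strand setting of the counting is not known. Eef1akmt1, an eEF1A methyltransferase, is shown because of its values and not by the rule for named genes (chr14:57549598-57571569, minus strand). It had 236, 597 and 719 CPM in 1C and 311, 453 and 513 CPM in 8CB, against 184, 224 and 332 CPM in 2CB and 188, 219 and 286 CPM in 4CB. Embryos 4 and 5 of 1C and embryo 5 of 8CB lay within the range of 2CB, and the log2 fold change was -1.02 ± 0.18 (SE, adjusted p = 2.67e-05).

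The mRNAs of several factors begin with a pyrimidine tract, the TOP element, through which mTOR and LARP1 control their translation. The 9 members of a textbook TOP list, Eef1a1, Eef1b2, Eef1d, Eef1g, Eef2, Eif3e, Eif3f, Eif3h and Eif4b, were all tested, with 2 called higher and 4 lower and a median of -0.30, and the other 43 tested factors had 4 higher and 19 lower with a median of -0.33. Of all genes 31.2% were higher and 23.9% lower, with a median of 0.12. RefSeq start sites (GRCm38.p6) were available for 49 of the 65 factors and for 5 of the 9 on the TOP list. The starts used in these embryos were not measured. Absence of a tract at an annotated start therefore does not show that an mRNA lacks it. A start at C in a run of at least 5 letters C or T was found for 1 of the 49 (2.04%, against 3.01% of 27025 genes), Eif3f. Its window at chr7:108934405-108934434 (plus strand) is shown because it carries the tract, with the run of 11 pyrimidines from the start site in capitals.
Eif3f: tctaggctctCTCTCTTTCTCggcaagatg
The palindrome CACGTG, the E-box letters, was looked for in the 250 bases before and 50 after each start, where both strands read alike. It occurred in 12 of the 49 factors (24.5%), against 8.09% of all 27025 genes, a gene being counted if any of its starts had it. These 27025 genes were not limited to those tested in these embryos, and the share among tested genes was not computed. Per start, it was in 14 of 64 windows of the factors (21.9%) and 7.15% of all windows. By direction, it was in 5 of 16 factors called lower (Eef2, Eif3a, Eif4e, Eif4h and Eif5a, 31.2%), 0 of 5 called higher and 5 of 20 not called (25%). Windows of 30 bases around it are shown for factors called lower named by the rule for named genes, with the letters CACGTG in capitals. They lie at chr3:138527192-138527221 (plus strand, 64 bases before the second of its 2 starts) for Eif4e, chr11:69921443-69921472 (minus strand, 74 bases before one of its 6 starts and 185 before another) for Eif5a and chr10:81176576-81176605 (plus strand, 43 bases before) for Eef2. A second match of Eif4e, 228 bases before the same start, one more of Eif5a, 178 bases before another start, and that of Eif3a, which begins 22 bases after its start, are not shown. A match of letters is a description and not a bound site.
Eif4e: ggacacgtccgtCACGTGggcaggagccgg
Eif5a: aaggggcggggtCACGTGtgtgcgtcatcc
Eef2: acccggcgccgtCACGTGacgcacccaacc

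The stages sharing a pool give the comparisons in which no library pool differs. In 8CB against 1C, 0 of the 52 factors and 0 of all 5940 genes (0%) were called by edgeR. At an unadjusted p under 0.05 there were 5 factors (9.62%) against 9.28% of all genes, and DESeq2 called 43 genes and 0 factors. The 5 were Eif2b5 (1.27 ± 0.42, adjusted p = 0.281), Eif5b (-0.88 ± 0.30, adjusted p = 0.317), Eif3j1 (-0.86 ± 0.34, adjusted p = 0.402), Eif4ebp1 (0.75 ± 0.32, adjusted p = 0.456) and Eif3a (-0.50 ± 0.23, adjusted p = 0.495). In 4CB against 2CB, 0 factors were called, against 0.0337% of all genes (2 genes), and DESeq2 called 10 genes and 0 factors. At an unadjusted p under 0.05 there was 1 factor (1.92%), Eef2kmt at 1.04 ± 0.50 (adjusted p = 0.999), against 4.31% of all genes. The median SE of a factor was 0.31 in 8CB against 1C and 0.30 in 4CB against 2CB. A p that misses the threshold at this spread does not show that the stages were alike.
For the 3 factors with the lowest adjusted p between the pools, the values inside each pool were smaller. These factors were picked for their values between the pools, and that choice alone favours smaller values inside them. Eif6 had 0.02 ± 0.26 in 8CB against 1C and -0.36 ± 0.26 in 4CB against 2CB (log2, SE). Eif3d had -0.01 ± 0.21 and -0.22 ± 0.21, and Eif5 had -0.28 ± 0.27 and 0.47 ± 0.27. The difference between both contrasts was not called for any factor, against 0% of all genes, and at an unadjusted p under 0.05 it held 3 factors (5.77%) against 8.94% of all genes, with the lowest adjusted p, 0.372, at Eif2b5.

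**Figure D4:**
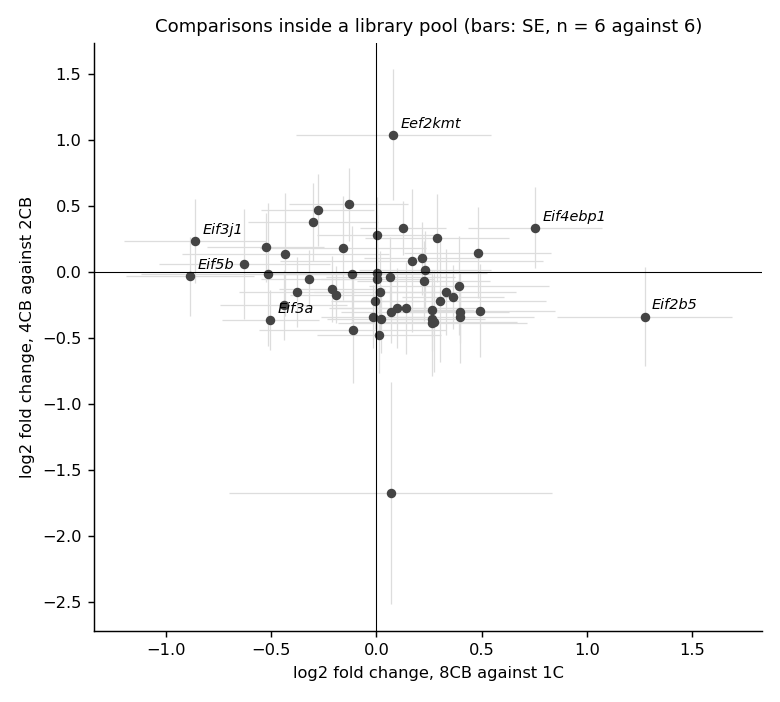
Log2 fold change of the 52 tested factors in 8CB against 1C (horizontal) and in 4CB against 2CB (vertical), both inside a library pool, with SE bars, 6 embryos against 6. The 6 named points passed an unadjusted p of 0.05 in one of them, and none of the 52 was called in either.

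Each stage of 1 pool was also set against each stage of the other, and these comparisons share their embryos. In 2CB against 1C, 4 factors were higher (23.9% of all genes were) and 14 lower (17.4% of all genes). In 4CB against 1C, 1 was higher (against 23.4%) and 9 were lower (against 17.5%). In 2CB against 8CB, 3 were higher (against 21.9%) and 13 lower (against 16.4%). In 4CB against 8CB, 3 were higher (against 23.1%) and 14 lower (against 16.9%). Thinned to equal depth, 8 factors were called in 2CB against 1C, against 28.2% of all genes, 8 in 4CB against 1C (29.7%), 10 in 2CB against 8CB (26.5%) and 10 in 4CB against 8CB (28.9%), in either direction. With no filter 8 of 63 were called in 2CB against 1C, against 15.7% of 23171 genes. Eef1akmt1, Eif3d, Eif4e, Eif5 and Eif6 were called lower in all 4 of these comparisons, and Eif4e2 was called higher in 3, without 4CB against 1C. The share of all genes called so repeatedly was not computed. Whether these repeated calls are unusual for factors was therefore not tested. Eif6 gave -1.22 ± 0.26 in 2CB against 1C, -1.57 ± 0.27 in 4CB against 1C, -1.24 ± 0.26 in 2CB against 8CB and -1.60 ± 0.27 in 4CB against 8CB.

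**Figure D5:**
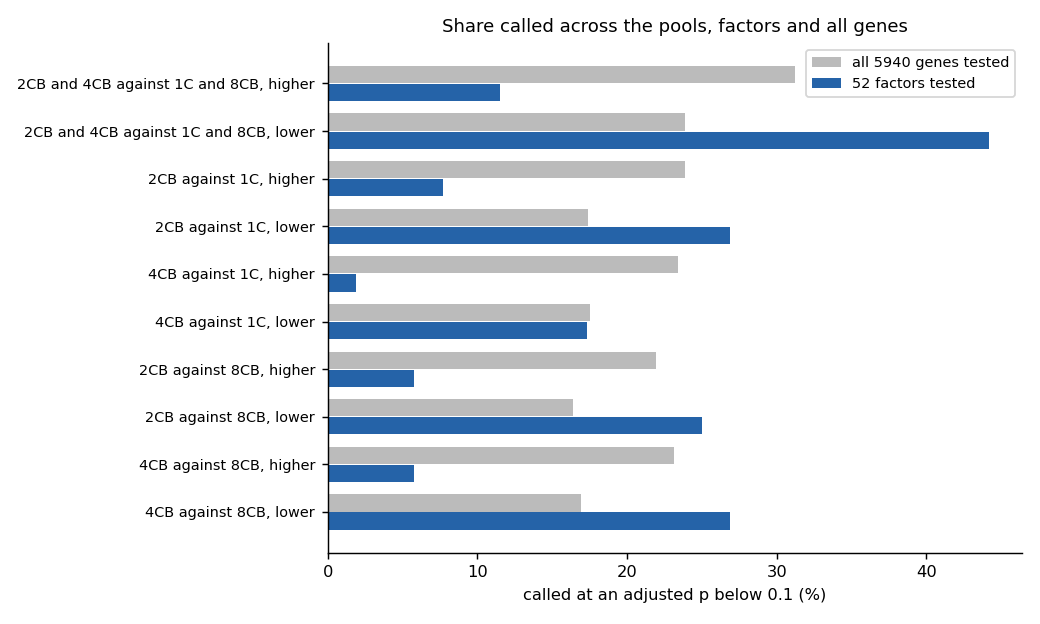
Share of the 52 tested factors (blue) and of all 5940 tested genes (grey) called at an adjusted p below 0.1 in each comparison across the pools (%), by direction. The share of factors called higher is below that of all genes in each comparison, for example 11.5% against 31.2% between the pools.

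Genes that work beside the factors were counted from lists of their own. The background shares were again 31.2% higher and 23.9% lower, with a median of 0.12. Of 16 tested helpers and regulators of initiation 4 were higher and 6 lower, with a median log2 fold change of -0.32. They included Pdcd4, an inhibitor of eIF4A (1.89 ± 0.39), Denr, a recycling factor (0.80 ± 0.26), Ddx3x, a helicase (-1.59 ± 0.18), and Larp4, a poly(A)-binding regulator (-2.87 ± 0.23). Of 7 tested termination and rescue genes 0 were higher and 1 was lower, the release factor Gspt1 (-0.57 ± 0.22). Of 5 tested mitochondrial translation factors 2 were higher and 0 lower, Mtif2 (0.71 ± 0.29) and Tufm, the mitochondrial tRNA carrier (0.65 ± 0.31), with a median of 0.56.

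The 13 factors under the filter had few UMIs over all 24 embryos. Eef1a2, the elongation factor of muscle and neurons, and Eif4ebp3 had 0 UMIs. Eif2ak2, the kinase PKR, had 7, Eef1akmt2 8, Eif5a2 23, Eef1akmt3 24, Eif4e3 26, Eif4e1b, an oocyte cap-binding protein, 53, Eif3m 80, Eef2k 99, Eif3j2 103, Eif4enif1 145 and Eif2ak4, the kinase GCN2, 157 UMIs. For Eif4ebp3 all 50-base stretches (100%) occur in AC115631.1, which overlaps it on the same strand, for Eif3m, 44.6% of the 50-base stretches in its 3' ends occur in the pseudogene Gm7658, and for Eif3j2, 88.9% occur in Eif3j1, so that the low counts of these 3 are uncertain. Fitted with no filter, in an analysis of 23171 genes, 2 of the 11 with any UMI were called higher between the pools (14.2% of all those genes were) and 1 lower (9.61% were): Eef2k, the kinase that inhibits eEF2 (2.63 ± 0.66, adjusted p = 8.34e-04), Eif2ak4 (1.46 ± 0.52, adjusted p = 0.0282) and Eif5a2 (-2.81 ± 0.85, adjusted p = 0.00804). Eef2k gave 0, 0 and 6.17 CPM in 1C, 0, 0 and 7 CPM in 8CB, 0, 10.8 and 20.8 CPM in 2CB and 0, 24.4 and 68.8 CPM in 4CB, and the stages overlapped.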

How the data were processed

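Whole-embryo RNA was measured by CEL-Seq2 in 24 pseudoblastocysts, 6 for each of the 4 stages. The authors aligned reads to GRCm38 with HISAT2 2.2.6 and counted them with HTSeq 0.6.1, as the submitters' processing notes and the paper state, and the deposited values are UMI counts per gene, not normalized. The largest count, 53029, exceeds the 4096 sequences of a 6-base UMI, so that values are not numbers of distinct UMIs. The strand setting and annotation release are not given in the sources used here, so that reads of overlapping antisense genes cannot be told apart. Symbols came from GENCODE M21 (51719 of 52366 genes matched), and coordinates from the table (GRCm38). The table holds 24 further columns of embryos outside the listed samples, which were not used.

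Stages were taken from column names that match the labels of the 2 pools. CPM is UMIs per 1000000 of the embryo's total multiplied by its TMM factor. Counts were fitted in edgeR 4.0.16 (R 4.3.3) with TMM factors (0.936 to 1.05), filterByExpr (minimum count 10) and a robust quasi-likelihood model with 1 mean per stage. Benjamini-Hochberg adjustment covered all 5940 genes tested, and the threshold was 0.1. The common biological coefficient of variation was 0.442. Totals of 70941 to 1507471 UMIs limit low genes most in the shallow 8CB embryos. The steps were tested on simulated counts.

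Members and lists were chosen with earlier results of these data known. Named genes are the called member with the largest change each way in each complex (mean of at least 20 CPM), members whose pools do not overlap, and, since none was called inside a pool, the member with the lowest p there. Near-identical copies were measured as the share of 50-base stretches in the last 500 bases of protein-coding transcripts that also occur in transcripts of other genes. Start sites are from RefSeq. Alternatives were DESeq2 1.42.0, DESeq2 size factors, no filter, a filter of 5 UMIs in 12 embryos, thinning to equal depth in a single random draw, a threshold of 0.05, the replicate number as a block, fits of the compared embryos, leaving out each embryo, and pooled shares. Leaving out 1C embryos 4 and 5, or 8CB embryos 5 and 6, was added after seeing the data. Deviations from stage means of embryos that share a replicate number across stages correlated at -0.0138 on average (36 pairs).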

Additional observations from a re-analysis of the deposited data

Results flagged for a closer look

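For the 18 factors named by the rule for named genes, each stage was checked for an embryo whose gap to its nearest neighbour, divided by the range of the 6 embryos, exceeded Dixon's 95% critical value for groups of that size. Of 72 groups of 6 embryos 10 did, where chance gives about 1 in 20. High single embryos were found for Eif2ak3 in 2CB embryo 2 (140 CPM, next 52.4), Eif4e2 in 8CB embryo 2 (75.5 CPM, next 52.5), Eif4g2 in 2CB embryo 2 (729 CPM, next 439) and Eif4ebp2 in 4CB embryo 6 (144 CPM, next 70.4). Further high values were Eef1a1 in 2CB embryo 3 (419 CPM, next 104) and in 4CB embryo 1 (442 CPM, next 87.7), Eef1e1 in 4CB embryo 1 (83.3 CPM, next 39) and Eif2b5 in 2CB embryo 6 (296 CPM, next 104). Low single embryos were Eif4e2 in 4CB embryo 2 (89.6 CPM, next 105) and Eif6 in 1C embryo 5 (418 CPM, next 772). The values of Eif2ak3, Eif2b5 and Eef1a1 without these embryos stand in the report.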

How the results depend on the processing

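Between the pools, none of the 29 called factors changed sign in the 33 other settings (32 for Eif4a2), while 12 of the 23 not called did in at least 1, among them Eif2s1 and Eif3c (13 settings each), Eif4g1 (12), Eif1a (7), Eif4g3 (6), Eif4ebp1 (4) and Eif4a1 (1, at 0.06). Thinned to equal depth, the factors called numbered 9 among the 4 stages (21 at full depth, all genes went from 46.9% to 34.6%), 3 higher and 14 lower between the pools (6 and 23, all genes from 31.2% to 24.3% and from 23.9% to 19%), 8 in 2CB against 1C (18, 41.4% to 28.2%), 10 in 2CB against 8CB (16, 38.3% to 26.5%) and 10 in 4CB against 8CB (17, 40.1% to 28.9%), and 0 had pools that did not overlap on the lower side (2, 2.17% to 1.36%), all with fewer UMIs. With no filter 15 of 63 were lower between the pools (9.61% of 23171 genes) and 8 were called in 2CB against 1C (15.7%), and at an adjusted p below 0.05 there were 13 among the 4 stages (39.8% of all genes). The median share of Eif5a2 in 4CB was 0% and 0.330% over pooled UMIs. Leaving out each embryo, the counts ran from 16 to 22 among the 4 stages, 3 to 7 higher and 19 to 23 lower between the pools, 12 to 18 in 2CB against 1C, 8 to 15 in 4CB against 1C, 12 to 17 in 2CB against 8CB, 14 to 21 in 4CB against 8CB and 0 inside the pools. The 3 higher came without 1C embryo 6, and 15 in 4CB against 1C without 1C embryo 2. Over all settings the calls that changed most often were those of Eif3e (24 of 33), Eif3h (20), Eef1b2 (18), Eif4a2 (17 of 32), Eif2ak3 (14) and Eif2b5 (13), and 17 of the 29 called factors lost the call in at least 1. The replicate number did not pair embryos, and with it as a block there were 6 higher and 19 lower (30.5% and 22.9% of all genes), Eef1a1 (0.68, adjusted p = 0.158), Eif4a2 (-0.99, adjusted p = 0.182), Eif3e (-0.42, adjusted p = 0.133), Eif3h (-0.44, adjusted p = 0.127) and Eef1b2 (-0.43, adjusted p = 0.14) losing their calls and Eif2b5 gaining one (0.58, adjusted p = 0.0819). DESeq2 size factors moved the median of all genes from 0.12 to 0.167. The pools and the groups compared across them cannot be told apart in these data.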
